A study of Mus musculus with 14 samples.

Results

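The core spliceosome genes described here are 59 mouse genes for proteins of the small nuclear ribonucleoproteins (snRNPs), the Prp19 complex, the splicing helicases and the exon junction complex. They were taken from a list of gene symbols set by role, with no threshold on a measured value, although the list was drawn up when earlier results of these data were known. Each symbol matched 1 row of the 52550 genes in the table, and all 59 passed the filter on low counts that left 16836 genes for testing.

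RNA was measured in lung adenocarcinomas of KPY mice, of which 6 were KPY-Ctrl and 8 were KPY-Setd2KO tumors. All mice carried floxed Trp53 on both alleles and a Cre-activated Rosa26 YFP reporter, on a mixed B6J/129S4vJae background, and males and females were used. Tumors in both groups were started by a lentivirus given into the trachea that delivered Cre, Cas9 and a guide RNA, which was sgBGal for KPY-Ctrl and sgSetd2 for KPY-Setd2KO. The study's methods describe dissected tumors from which live YFP-positive cells were sorted. The labels instead speak of RNA from cell lines and name other kits, and this was not resolved. The tumors came from fewer mice than tumors, and the mouse of each tumor is not given, so each test treated tumors as independent. The time from infection to the harvest of these tumors is not given in the sources used here.

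The spliceosome removes introns from pre-mRNA. The U1 snRNP binds the 5′ splice site, SF1 and U2AF mark the branch point and 3′ splice site, and the U2 snRNP then takes up the branch point. The U4/U6.U5 tri-snRNP joins, the Prp19 complex and a series of RNA helicases drive activation and both catalytic steps, and the exon junction complex is left on the spliced mRNA. SETD2 trimethylates histone H3 at lysine 36 along transcribed gene bodies, a mark that has been linked to the choice of splice sites. The comparison of genotypes thus addressed whether the RNA for the splicing proteins differed in tumors in which Setd2 was targeted. Reads of all transcripts of a gene were summed in the table, so the values are levels of RNA per gene and say nothing of how any intron was spliced.

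The total estimated count lay between 20072236 and 51828846 per tumor, and the 59 genes together took 0.385% to 0.527% of the counts tested. Values are counts per 1000000 counts (CPM) with library sizes normalized by the TMM method, and fold changes are log2 of KPY-Setd2KO over KPY-Ctrl with a standard error (SE). All were estimated with the quasi-likelihood method of edgeR. The mean log2 CPM of 12 epithelial markers lay between 8.34 and 10.3 in KPY-Ctrl and between 7.59 and 10.3 in KPY-Setd2KO tumors. The mean log2 CPM of 12 leukocyte markers lay between 2.86 and 8.46 in KPY-Ctrl and between 2.77 and 8.67 in KPY-Setd2KO tumors. The tumors fell into a set of 7 with leukocyte scores of 2.77 to 5.05 and a set of 7 with scores of 7.99 to 8.67, each with 3 KPY-Ctrl and 4 KPY-Setd2KO tumors. The epithelial score separated the same sets, at 9.79 to 10.3 in the former and 7.59 to 8.92 in the latter. Ptprc, the leukocyte antigen CD45, ranged from 5.32 to 698.0 CPM over all tumors and was at 0 in none. Scores of macrophage, erythroid, fibroblast and endothelial markers also overlapped between genotypes. In these 6 marker lists, 1 epithelial, 1 endothelial and 1 erythroid gene were higher at an unadjusted p under 0.05 and 0 genes passed an adjusted p of 0.05 from edgeR. In such bulk samples, fewer cells of a type and less RNA per cell cannot be told apart.

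Setd2 itself measured 41.9 CPM in the lowest, 53.8 in the median and 63.6 in the highest KPY-Ctrl tumor, and 17.9, 30.4 and 47.4 CPM in KPY-Setd2KO tumors. KPY-Setd2KO replicates 2 and 4 lay above the lowest control. The log2 fold change was -0.74 (SE 0.22), with an adjusted p of 0.175 from edgeR.

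The levels of the core spliceosome genes were compared per length of the principal transcript, as transcripts per 1000000 (TPM), in KPY-Ctrl tumors. Snrpe, which encodes SmE of the ring that the Sm proteins form on snRNAs, was at 175 ± 25.9 TPM (SD, n = 6), and Snrpb, which encodes SmB, was at 146 ± 22.2 TPM. Magoh, a core subunit of the exon junction complex, was at 141 ± 15.3 TPM. These 3 neighbours in the order differed by about their spread or less. The lowest level was that of Prpf4, a U4/U6 snRNP protein, at 6.71 ± 2.28 TPM. Cwc22, the splicing factor that brings Eif4a3 to the spliceosome, followed at 13.4 ± 2.14 TPM and Sart3, the U6 recycling factor, at 13.8 ± 5.50 TPM. Estimates for members of 1 complex differed widely, since the Sm ring spanned 22.8 TPM for Snrpf to 175 TPM for Snrpe although its subunits are present in equal number in the assembled ring. Reads of both genes can be shared with other genes, as given below, and the part of this in the span was not tested.

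**Figure D1:**
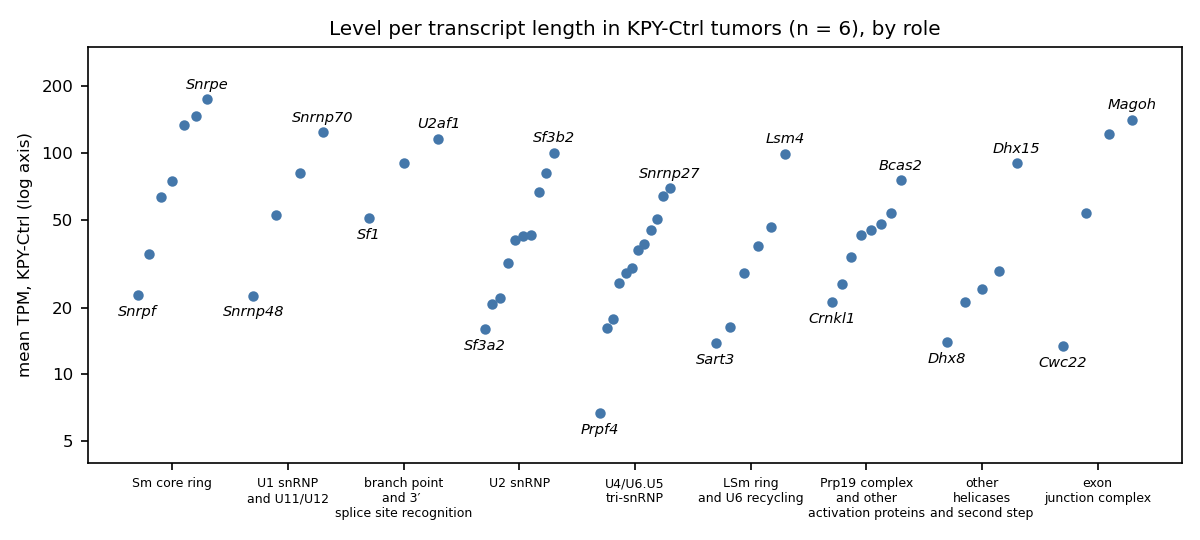
Mean level of each of the 59 core spliceosome genes in the 6 KPY-Ctrl tumors, in TPM on a log axis, with the genes ordered by level within each role; the lowest and highest gene of each role are named. Levels run from 6.71 TPM for Prpf4 to 175 TPM for Snrpe, and each role but the branch point factors holds genes that differ several-fold.

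Compared with KPY-Ctrl tumors, 39 of the 59 core spliceosome genes had a log2 fold change above 0 in KPY-Setd2KO tumors. The median log2 fold change was 0.19, beside 0.03 over all genes tested, of which 52.7% were above 0. No member passed an adjusted p of 0.05 in edgeR, and the share of all genes that did was 0%. At an unadjusted p under 0.05, 12 members (20.3%) were higher, beside 6.93% of all genes, and 4 members (6.78%) were lower, beside 6.8% of all genes. The higher ones were Snrnp70, Snrnp48, Sf3b2, Sart1, Snrnp27, Ddx23, Prpf3, Prpf38b, Crnkl1, Slu7, Rbm8a and Cwc22, and the lower ones were Prpf8, Snrnp200, Usp39 and Aqr. With DESeq2, the tool of the study, 7 members were higher at an adjusted p under 0.05, beside 2.64% of all genes. They were Snrnp70, Snrnp48, Snrnp27, Sart1, Crnkl1, Prpf38b and Rbm8a. DESeq2 called 0 members lower, beside 1.93% of all genes. The members lower at an unadjusted p under 0.05 numbered 5 with DESeq2, beside 8.17% of all genes, and 4 with edgeR.

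The direction of the smaller differences depended on the scaling. With library size only in place of TMM, the median of all genes moved by -0.138, and 7 members (11.9%) were higher and 6 (10.2%) lower at an unadjusted p under 0.05, beside 4.92% and 9.7% of all genes. Measured from the median of all genes, that of the members was 0.157 with TMM and 0.145 with library size only. The sign turned for Snrpe, Sf3b5, Prpf6, Sart3, Dhx38 and Magoh, which were all below 0 with library size only. Every member named as higher or lower at an unadjusted p under 0.05 kept its sign under that scaling.

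When the leukocyte score was added to the edgeR fit as a covariate, 7 members were higher at an adjusted p under 0.05, beside 2.99% of all genes, and 2 were lower, beside 2.25%. Those higher were Sart1, Prpf38b, Rbm8a, Snrnp27, Snrnp70, Crnkl1 and Slu7, and those lower were Prpf8 and Usp39. Of the 7 members called by DESeq2 without the score, 6 were also called here. The covariate was chosen after leukocyte-marker RNA had been seen to vary between tumors.

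**Figure D2:**
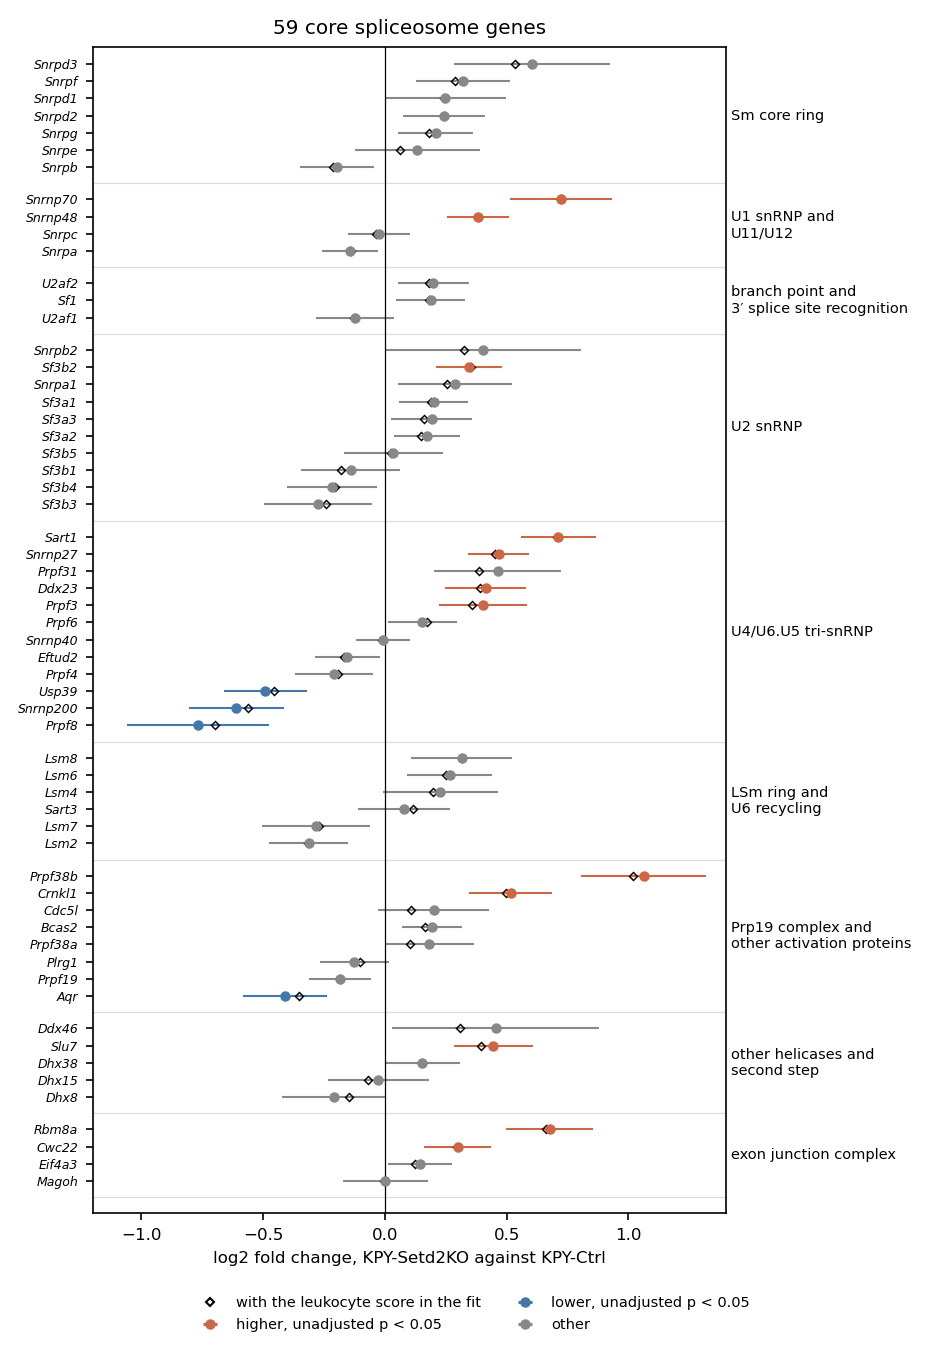
Log2 fold change of each of the 59 core spliceosome genes in KPY-Setd2KO (n = 8) against KPY-Ctrl (n = 6) tumors, by role; dots and bars are the edgeR estimate and its SE, and open diamonds are the estimate with the leukocyte score in the fit. Prpf38b lies farthest to the right at 1.06 and Prpf8 farthest to the left at -0.77, and the U4/U6.U5 tri-snRNP holds genes on both sides.

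Among the 7 Sm ring genes, 6 had a fold change above 0 with TMM and none passed an unadjusted p of 0.05, with log2 fold changes from -0.20 for Snrpb to 0.60 for Snrpd3. Snrpd3, which encodes SmD3, measured 37.4, 60.5 and 109.4 CPM in the lowest, median and highest KPY-Ctrl tumor and 58.1, 89.5 and 199.6 CPM in KPY-Setd2KO tumors. Its groups overlapped, and its highest value was in KPY-Setd2KO replicate 4. The log2 fold change of Snrpd3 was 0.60 (SE 0.32), with an adjusted p of 0.436 from edgeR. Snrpd1 was at 0.25, Snrpd2 at 0.24, Snrpf at 0.32, Snrpg at 0.21 and Snrpe at 0.13 on the log2 scale. Snrpd3 overlaps Gucd1 on the opposite strand, and the strand setting of the counting is not stated.

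Of the U1 and U11/U12 snRNP genes, Snrnp70 and Snrnp48 were higher at an unadjusted p under 0.05, and Snrpa and Snrpc had values near 0. Snrnp70 encodes U1-70K, which binds the first stem-loop of U1 snRNA. It measured 100.5, 122.9 and 164.4 CPM in the lowest, median and highest KPY-Ctrl tumor and 124.6, 216.4 and 331.3 CPM in KPY-Setd2KO tumors. KPY-Setd2KO replicates 1 and 2 lay within the control range and the other 6 lay above all controls. Snrnp70 had a log2 fold change of 0.72 (SE 0.21), with an adjusted p of 0.161 from edgeR and 0.0185 from DESeq2. Snrnp48, which encodes a protein of the U11/U12 snRNP of the minor spliceosome, went from 24.5 ± 3.6 CPM (SD, n = 6) to 31.9 ± 3.61 CPM (SD, n = 8), and its log2 fold change was 0.38 (SE 0.13; adjusted p = 0.221 from edgeR, 0.0259 from DESeq2). Snrpa, which encodes protein A of the U1 snRNP, was at -0.14 and Snrpc, which encodes its protein C, at -0.02 on the log2 scale.

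The 3 genes for recognition of the branch point and 3′ splice site showed no difference past an unadjusted p of 0.05. U2af2, the large U2AF subunit that binds the polypyrimidine tract, measured 90.7, 110.3 and 150.2 CPM in the lowest, median and highest KPY-Ctrl tumor and 113.8, 127.5 and 172.1 CPM in KPY-Setd2KO tumors, with overlapping groups. Its log2 fold change was 0.20 (SE 0.15; adjusted p = 0.609 from edgeR). Sf1, the branch point binding protein, was at 0.19, and U2af1, the small subunit that contacts the AG at the 3′ splice site, was at -0.12.

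Over the 10 U2 snRNP genes the median log2 fold change was 0.18, and 1 was higher at an unadjusted p under 0.05. Sf3b2, a subunit of the SF3B complex that clamps the branch point helix, measured 171.8, 186.7 and 211.8 CPM in the lowest, median and highest KPY-Ctrl tumor and 185.5, 256.3 and 272.9 CPM in KPY-Setd2KO tumors. In 5 of 8 KPY-Setd2KO tumors Sf3b2 lay above all controls by over 30 CPM, and replicates 1, 7 and 8 lay within or just above the control range. The log2 fold change of Sf3b2 was 0.34 (SE 0.13; adjusted p = 0.273 from edgeR). Snrpb2, the U2B″ protein, had the largest estimate of this group at 0.40 (SE 0.40; adjusted p = 0.731 from edgeR). Snrpb2 measured 24.1, 48.7 and 92.4 CPM in the lowest, median and highest KPY-Ctrl tumor and 35.8, 66.9 and 120.1 CPM in KPY-Setd2KO tumors, and the SD within genotypes exceeded the difference. Sf3b1, the largest SF3B subunit, was at -0.14, Sf3b3 at -0.28 and Sf3b4 at -0.22, while Sf3a1, Sf3a2 and Sf3a3 of the SF3A complex were at 0.20, 0.17 and 0.19. None of these 6 passed an unadjusted p of 0.05.

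The 12 U4/U6.U5 tri-snRNP genes held the members with the smallest p and the most negative change, and they split by direction, with 4 higher and 3 lower at an unadjusted p under 0.05. Sart1, which encodes a tri-snRNP protein required for the tri-snRNP to join the prespliceosome, measured 41.4, 45.9 and 69.6 CPM in the lowest, median and highest KPY-Ctrl tumor. In KPY-Setd2KO tumors Sart1 measured 60.4, 83.4 and 102.0 CPM. KPY-Ctrl replicate 1 lay above KPY-Setd2KO replicate 1, and otherwise every KPY-Setd2KO tumor lay above every control. Sart1 had a log2 fold change of 0.71 (SE 0.15), with an adjusted p of 0.116 from edgeR, 2.91e-04 from DESeq2 and 0.0158 from edgeR with the leukocyte score. A transcript antisense to Sart1 overlaps it, and the 2 cannot be told apart without strand.

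Snrnp27, a small SR-like protein of the tri-snRNP, lay between 32.2 and 46.1 CPM in controls and between 45.3 and 60.1 CPM in KPY-Setd2KO tumors. Only KPY-Ctrl replicate 1 reached the KPY-Setd2KO range. Its log2 fold change was 0.47 (SE 0.13; adjusted p = 0.147 from edgeR, 0.00164 from DESeq2). Ddx23, the helicase PRP28 that releases U1 from the 5′ splice site, was at 0.41 and Prpf3, a U4/U6 protein, was at 0.40. Prpf31, the U4 snRNP protein, was at 0.46 with an SE of 0.26 and did not pass an unadjusted p of 0.05.

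Prpf8, the protein at the catalytic centre that holds the active site RNA, measured 114.5, 280.8 and 363.1 CPM in the lowest, median and highest KPY-Ctrl tumor and 93.5, 138.6 and 283.9 CPM in KPY-Setd2KO tumors. The lowest control, replicate 1, lay below every KPY-Setd2KO tumor but replicate 4, and KPY-Setd2KO replicate 5 lay among the controls. Prpf8 had a log2 fold change of -0.77 (SE 0.29), with an adjusted p of 0.258 from edgeR, 0.139 from DESeq2 and 0.0218 from edgeR with the leukocyte score. Snrnp200, the helicase BRR2 that unwinds U4 from U6, went from 141.7 ± 37.1 CPM (SD, n = 6) to 92.8 ± 20.9 CPM (SD, n = 8), with a log2 fold change of -0.61 (SE 0.20; adjusted p = 0.198 from edgeR). Usp39, a tri-snRNP protein related to ubiquitin proteases, went from 50.9 ± 10.3 CPM to 36.2 ± 7.48 CPM, with a log2 fold change of -0.49 (SE 0.17; adjusted p = 0.232 from edgeR, 0.0485 with the leukocyte score). Eftud2, the U5 GTPase SNU114 that sits beside PRPF8 and BRR2 in the U5 snRNP, was at -0.15 and Prpf6, which bridges U5 and U4/U6, was at 0.15. Snrnp40, the U5 40K protein, measured 24.6 ± 2.43 CPM in KPY-Ctrl, 24.5 ± 2.22 CPM in KPY-Setd2KO and a log2 fold change of -0.01 (SE 0.11).

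The ratio of Sart1 to Prpf8 counts within each tumor, which no scaling of libraries alters, was formed after their values had been seen and was not tested. The controls spanned 0.114 to 0.607 and the KPY-Setd2KO tumors 0.273 to 1.09. KPY-Ctrl replicate 1 was the only control within the KPY-Setd2KO range.

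**Figure D3:**
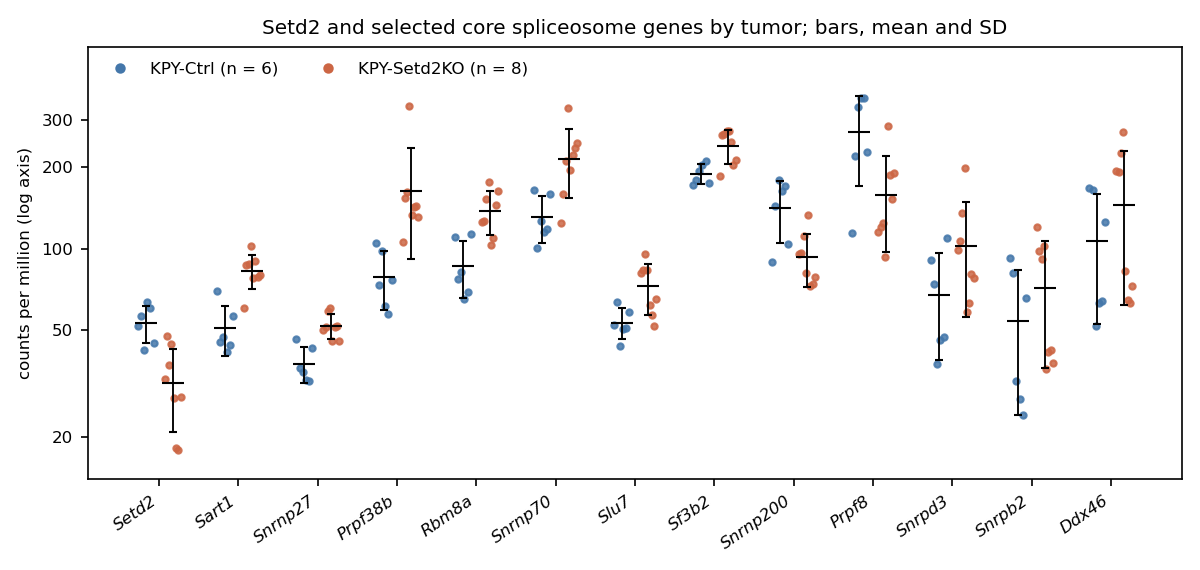
CPM on a log axis in each KPY-Ctrl (n = 6) and KPY-Setd2KO (n = 8) tumor for Setd2 and 12 core spliceosome genes; each dot is a tumor, and bars give the mean and SD. Prpf38b is the member shown whose groups do not overlap, with 104.5 CPM as the highest control and 105.8 CPM as the lowest KPY-Setd2KO tumor, while Snrpd3, Snrpb2 and Ddx46 spread widely in both groups.

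No LSm or U6 recycling gene passed an unadjusted p of 0.05. Lsm2, a subunit of the ring on the 3′ end of U6 snRNA, measured 10.4, 14.8 and 19.2 CPM in the lowest, median and highest KPY-Ctrl tumor and 10.3, 11.8 and 13.9 CPM in KPY-Setd2KO tumors (log2 fold change -0.31, SE 0.16; adjusted p = 0.419 from edgeR). Lsm8, the subunit that sets the nuclear ring apart from the cytoplasmic one, measured 13.5, 18.3 and 25.4 CPM and 13.7, 24.0 and 29.7 CPM (log2 fold change 0.32, SE 0.21; adjusted p = 0.551 from edgeR). Lsm6 was at 0.27, Lsm4 at 0.23, Lsm7 at -0.28 and Sart3 at 0.08, on both sides of 0.

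Among the Prp19 complex and other activation proteins, Prpf38b and Crnkl1 were higher and Aqr was lower at an unadjusted p under 0.05. Prpf38b, which encodes an arginine- and serine-rich relative of the B complex protein PRPF38A, measured 57.4, 74.9 and 104.5 CPM in the lowest, median and highest KPY-Ctrl tumor. In KPY-Setd2KO tumors Prpf38b measured 105.8, 143.1 and 338.9 CPM. It was the 1 member of 59 (1.69%) whose KPY-Setd2KO values all lay above the controls, beside 0.327% of all genes, and 0 members lay wholly below, beside 0.244%. The log2 fold change of Prpf38b was 1.06 (SE 0.26), with an adjusted p of 0.127 from edgeR, 0.00384 from DESeq2 and 0.0267 from edgeR with the leukocyte score. The highest value was in KPY-Setd2KO replicate 4, and without that tumor the log2 fold change was 0.83 (adjusted p = 0.161 from edgeR). Its relative Prpf38a was at 0.18 (SE 0.18).

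Crnkl1, the Syf3 homologue of the Prp19-related complex, went from 44.5 ± 9.58 CPM (SD, n = 6) to 63.6 ± 11.7 CPM (SD, n = 8), with a log2 fold change of 0.52 (SE 0.17; adjusted p = 0.214 from edgeR, 0.0462 from DESeq2). Crnkl1 overlaps Cfap61 on the opposite strand. Aqr, the helicase Aquarius of the intron-binding complex, was at -0.41 (SE 0.17; adjusted p = 0.310 from edgeR). Prpf19, the ubiquitin ligase that gives the complex its name, was at -0.18, Plrg1 at -0.13, Cdc5l at 0.20 and Bcas2 at 0.19, and none of these 4 core subunits passed an unadjusted p of 0.05.

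Of the other helicases and second-step factors, Slu7, which acts in choosing the 3′ splice site in the second step, was higher at an unadjusted p under 0.05. It measured 43.7, 51.4 and 63.6 CPM in the lowest, median and highest KPY-Ctrl tumor and 51.5, 73.2 and 95.4 CPM in KPY-Setd2KO tumors, and KPY-Setd2KO replicates 5 to 7 lay within the control range. The log2 fold change of Slu7 was 0.45 (SE 0.16; adjusted p = 0.248 from edgeR, 0.0423 with the leukocyte score). Ddx46, the helicase PRP5 that acts when U2 binds the branch point, was at 0.45 with an SE of 0.42 (adjusted p = 0.709 from edgeR). Ddx46 measured 51.6, 94.5 and 168.5 CPM in the lowest, median and highest KPY-Ctrl tumor and 62.9, 137.1 and 271.3 CPM in KPY-Setd2KO tumors. Dhx38 (PRP16) was at 0.15, Dhx15 (PRP43) at -0.03 and Dhx8 (PRP22) at -0.21. These are the helicases of the second step, of spliceosome disassembly and of mRNA release, and none passed an unadjusted p of 0.05.

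All 4 exon junction complex genes had an estimate above 0 with TMM, from 0.0006 for Magoh, which turned below 0 with library size only, to 0.68 for Rbm8a. Rbm8a encodes Y14, the partner of MAGOH. It measured 65.3, 79.6 and 113.2 CPM in the lowest, median and highest KPY-Ctrl tumor and 103.3, 135.9 and 177.0 CPM in KPY-Setd2KO tumors. KPY-Setd2KO replicates 5 and 6 lay below KPY-Ctrl replicates 1 and 6, and the other 6 lay above all controls. Rbm8a had a log2 fold change of 0.68 (SE 0.18), with an adjusted p of 0.137 from edgeR, 0.00557 from DESeq2 and 0.0211 from edgeR with the leukocyte score. Magoh, whose protein binds Y14 as a heterodimer, went from 60.3 ± 16.1 CPM to 60.4 ± 10.6 CPM. Cwc22 was at 0.30 (SE 0.14; adjusted p = 0.363 from edgeR), and Eif4a3, the RNA-binding helicase of the complex, was at 0.14 (SE 0.13).

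Reads of some members can be shared with near-identical copies elsewhere in the genome, which makes their estimated counts uncertain. Cdc5l has 10 such copies, Cwc22 has 7, Eif4a3 has 3, and Lsm7, Snrpa and U2af1 have 2 each, counted as genes that match at 95% identity or more over at least 50% of the principal transcript. Genes that overlap the member were not counted. This left out Ccdc38, which overlaps Snrpf on the opposite strand and matches it over 504 bases at 100% identity. Sf3b4, Snrpe and U2af2 have 1 each. Of the 16 members past an unadjusted p of 0.05, only Cwc22 has such a copy.

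The level of the core spliceosome genes also varied between tumors of 1 genotype. For 39 members its SD exceeded the size of their own log2 fold change between genotypes, and the share of all genes for which this held was not computed. The SD of log2 CPM within genotypes was 0.84 for Ddx46 and 0.80 for Snrpb2, both above their fold changes. It was 0.60 for Snrpd3 and 0.57 for Prpf8, and 0.13 for Snrnp40. The median deviation of the 59 genes from their own means ran from -0.28 in KPY-Ctrl replicate 4 to 0.27 in KPY-Setd2KO replicate 4. In the fit with both genotype and leukocyte score, 23 members rose with the score at an adjusted p under 0.05 from edgeR (39% of 59), beside 28.4% of all genes, and 7 members fell (11.9%), beside 28.3%. This split depended on the scaling, and with library size only 9 members rose (15.3%) and 16 fell (27.1%), beside 18.6% and 40% of all genes. The median slope of all genes moved by -0.0766 log2 units per unit of score under that scaling. Relative to it, the median slope of the members was 0.0568 with TMM and 0.0611 with library size only. Slopes of opposite sign under the 2 scalings were found for 22 members, a count not made over all genes.

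The 3 largest slopes were those of Ddx46 at 0.31 (SE 0.03; adjusted p = 3.44e-06), Snrpb2 at 0.29 (SE 0.03; adjusted p = 1.74e-06) and Snrpd3 at 0.22 (SE 0.03; adjusted p = 4.66e-05), in log2 units per unit of score from edgeR. Their slopes stayed above 0 and called with library size only, at 0.26, 0.24 and 0.16. Ddx46 lay between 51.6 and 82.2 CPM in the 7 tumors with lower scores and between 125 and 271.3 CPM in the 7 with higher scores. Snrpb2 lay between 24.1 and 42.1 CPM in the former and between 65.3 and 120.1 CPM in the latter. For both genes the sets did not overlap. In the tumors with higher scores 7 of 59 members (11.9%) were wholly above, beside 13.6% of all genes, and they were Snrpe, Snrpb2, Sf3b1, Prpf31, Cdc5l, Prpf38a and Ddx46. None was wholly below, as 0 of 59 beside 9.35% of all genes.

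The 3 most negative slopes were those of Prpf8 at -0.19 (SE 0.03; adjusted p = 1.38e-04), Sf3b3 at -0.14 (SE 0.02; adjusted p = 1.58e-04) and Dhx8 at -0.11 (SE 0.03; adjusted p = 0.00564). Sf3b3, an SF3B subunit, measured 124.4, 177.7 and 228.6 CPM in the lowest, median and highest KPY-Ctrl tumor and 92.6, 126.6 and 221.7 CPM in KPY-Setd2KO tumors. Dhx8 measured 20.1, 34.5 and 45.1 CPM in KPY-Ctrl and 22.0, 29.2 and 47.7 CPM in KPY-Setd2KO tumors. Snrnp40 had a slope of 0.03 (SE 0.02; adjusted p = 0.288 from edgeR). Since the scores form 2 sets with a gap between them, the slopes mostly compare the sets. Epithelial scores separated the same sets, so the slopes cannot be assigned to leukocyte rather than epithelial RNA. The relation within each set was not tested, because these genes had been chosen for their slope over the same tumors.

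**Figure D4:**
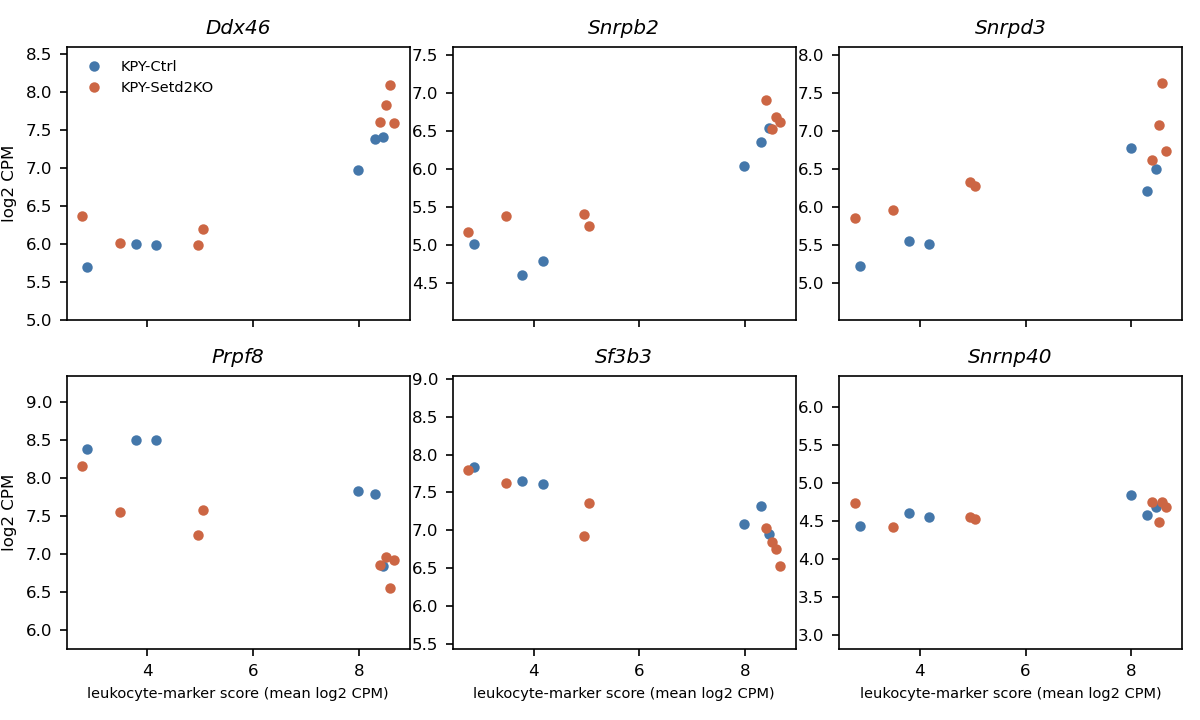
Log2 CPM of 6 core spliceosome genes against the leukocyte-marker score, the mean log2 CPM of 12 leukocyte markers, in 14 tumors; each dot is a tumor, and every panel spans the same range of log2 CPM. Ddx46 and Snrpb2 are higher in each of the 7 tumors at scores of 7.99 to 8.67 than in any other tumor. Snrpd3 tends to be higher and Prpf8 and Sf3b3 lower in these 7 tumors, with values that overlap those of the others. Snrnp40 spans the narrowest range, and no tumor lies between scores of 5.05 and 7.99.

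The difference between genotypes was also read within each set of 7 tumors, as 3 KPY-Ctrl against 4 KPY-Setd2KO tumors and with no test. The difference in mean log2 CPM was above 0 for 39 members in either set, and 47 members had the same sign in both. Its median over the members was 0.18 in the set with lower scores and 0.16 in the set with higher scores. Neither the signs nor the medians within the sets were computed over all genes, so no baseline stands beside them. In the set with lower scores the KPY-Setd2KO tumors lay wholly above the controls for 16 members, beside 13% of all genes, and wholly below for 4, beside 13.8%. In the set with higher scores they lay wholly above for 12 members, beside 7.03% of all genes, and wholly below for 4, beside 6.37%.

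Prpf38b differed by 0.97 in the set with lower scores and by 1.05 in the set with higher scores. Rbm8a differed by 0.83 and 0.54, Snrnp27 by 0.54 and 0.40, Crnkl1 by 0.55 and 0.49, Slu7 by 0.28 and 0.57, and Prpf31 by 0.39 and 0.49. These 6 genes were the members whose groups did not overlap in either set, and the share of all genes for which this held was not computed. Sart1 differed by 0.88 and 0.56 and Snrnp70 by 0.90 and 0.48, with groups that did not overlap in the set with lower scores. Prpf8 differed by -0.83 and -0.67 and Usp39 by -0.55 and -0.43, again without overlap in the set with lower scores. Snrnp200 differed by -0.98 in the set with lower scores and by -0.20 in the set with higher scores, and Setd2 itself by -1.27 and -0.34. Whether these differences vary between the sets was not tested.

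The principal transcripts of the core spliceosome genes were shorter than those of the 13852 protein-coding genes tested, with a median of 2244 against 2985 bases. Among protein-coding genes the fold change fell with transcript length, with medians of 0.11 under 2 kb, 0.02 from 2 to 4 kb and -0.10 over 4 kb. The 25 members under 2 kb had a median of 0.18 (16 above 0, or 64.0%, beside 62.1% of protein-coding genes). The 21 members from 2 to 4 kb had a median of 0.30 (17 above 0, or 81.0%, beside 52.4%). The 13 members over 4 kb had a median of -0.14 (6 above 0, or 46.2%, beside 41.4%). Snrnp200 and Prpf8, with the longest principal transcripts of the members, were among the lowest, and Aqr is also longer than 4 kb. Sart1 and Ddx46 are longer than 4 kb and had fold changes of 0.71 and 0.45. Spearman's rho between fold change and length was -0.05 across the 59 members and -0.17 across protein-coding genes, and genes are not independent replicates. The part of transcript length in these differences was not tested.

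**Figure D5:**
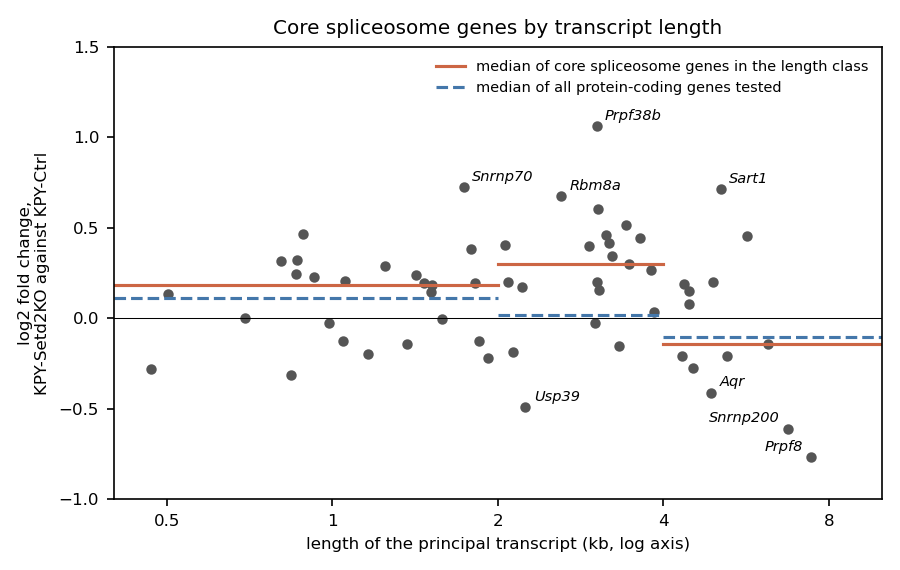
Log2 fold change of the 59 core spliceosome genes in KPY-Setd2KO against KPY-Ctrl tumors, by the length of the principal transcript in kb on a log axis; each dot is a gene, and lines give medians in 3 length classes for the members (solid) and for all protein-coding genes tested (dashed). The members' median is above that of all genes at 2 to 4 kb (0.30 and 0.02) and slightly below it over 4 kb (-0.14 and -0.10).

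A transcript annotated as retaining an intron exists for 46 of the 59 members (78.0%), beside 56.7% of protein-coding genes tested. The 13 members with none had a median log2 fold change of 0.14, the 27 with 1 or 2 had 0.20 and the 19 with 3 or more had 0.19. The medians of protein-coding genes in these classes were 0.05, 0.03 and -0.04.

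The promoters of the members, taken from RefSeq for GRCm38.p6 as 250 bases before to 50 after the annotated start, were searched for short motifs on both strands. A window was found for 45 of the 59 members. The letters CCGGAAG, a form of the site that ETS family transcription factors bind, stood in 16 of 45 windows (35.6%), beside 17% of the 11490 genes tested with a window. Other forms of this site were not searched. CCAAT stood in 40.0% beside 38.5%, GGGCGG in 60.0% beside 61.0% and TATAAA in 6.67% beside 7.93%. The members with CCGGAAG had a median log2 fold change of 0.16 (10 of 16 above 0) and those without it 0.20 (20 of 29 above 0). The windows of Sart1 and Snrnp27, with higher estimates in KPY-Setd2KO, and of Snrnp200, with a lower one, hold the letters once each, starting at base 7 after the start of Sart1 and at bases 44 and 33 before the starts of Snrnp27 and Snrnp200. Those of Prpf38b and Prpf8, the highest and lowest members, do not hold these exact letters, which does not exclude other forms of the site. The windows are shown 5′ to 3′ along the gene, with CCGGAAG in capitals, to let these promoters be compared.
Sart1, chr19:5388654-5388953, minus strand: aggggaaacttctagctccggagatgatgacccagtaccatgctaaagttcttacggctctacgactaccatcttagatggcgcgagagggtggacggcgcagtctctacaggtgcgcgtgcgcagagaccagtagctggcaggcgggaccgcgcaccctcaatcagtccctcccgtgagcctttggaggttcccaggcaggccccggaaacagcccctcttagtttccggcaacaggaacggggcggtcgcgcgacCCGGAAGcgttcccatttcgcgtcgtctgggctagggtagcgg
Snrnp27, chr6:86684442-86684741, minus strand: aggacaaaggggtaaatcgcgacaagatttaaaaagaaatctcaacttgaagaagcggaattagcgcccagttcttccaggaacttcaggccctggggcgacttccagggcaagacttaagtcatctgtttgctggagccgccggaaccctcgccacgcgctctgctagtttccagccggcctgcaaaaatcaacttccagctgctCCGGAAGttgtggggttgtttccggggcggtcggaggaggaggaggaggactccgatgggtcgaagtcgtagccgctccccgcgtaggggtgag
Snrnp200, chr2:127208136-127208435, plus strand: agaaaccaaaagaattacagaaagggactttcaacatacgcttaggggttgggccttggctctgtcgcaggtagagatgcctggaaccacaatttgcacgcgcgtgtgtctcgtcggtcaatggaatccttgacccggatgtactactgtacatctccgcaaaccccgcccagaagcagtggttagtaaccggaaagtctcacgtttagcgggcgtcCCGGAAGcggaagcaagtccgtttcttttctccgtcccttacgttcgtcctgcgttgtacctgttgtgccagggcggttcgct
Prpf38b, chr3:108911680-108911979, minus strand: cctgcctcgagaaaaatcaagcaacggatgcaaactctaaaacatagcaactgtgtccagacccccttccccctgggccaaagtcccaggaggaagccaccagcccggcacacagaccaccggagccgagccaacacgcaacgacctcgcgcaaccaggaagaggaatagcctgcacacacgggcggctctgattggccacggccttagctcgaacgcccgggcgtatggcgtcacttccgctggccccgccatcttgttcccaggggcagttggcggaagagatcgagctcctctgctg
Prpf8, chr11:75486527-75486826, plus strand: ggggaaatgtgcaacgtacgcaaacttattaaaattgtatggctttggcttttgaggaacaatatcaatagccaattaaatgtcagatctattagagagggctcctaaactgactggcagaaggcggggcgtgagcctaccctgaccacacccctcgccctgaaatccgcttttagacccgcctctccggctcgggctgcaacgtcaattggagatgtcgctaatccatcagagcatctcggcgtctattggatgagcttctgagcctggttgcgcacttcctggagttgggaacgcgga

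The pattern was set beside that of 78 other spliceosome and splicing genes, all of which were tested. At an unadjusted p under 0.05, 16 of these (20.5%) were higher and 2 (2.56%) lower, beside 6.93% and 6.8% of all genes. Their median log2 fold change was 0.12, which turned to -0.01 with library size only. DESeq2 called 9 of them higher and 0 lower at an adjusted p under 0.05, beside 2.64% and 1.93% of all genes. The smallest p values were those of Zrsr2, which recognizes the 3′ splice site of minor introns, Mfap1b, which encodes a B complex protein, and Luc7l3, a U1-associated protein. Zrsr2 went from 18.6 ± 2.74 CPM (SD, n = 6) to 31.1 ± 6.04 CPM (SD, n = 8), Mfap1b from 58.4 ± 5.54 to 100.5 ± 29.2 CPM and Luc7l3 from 81.1 ± 13.3 to 143.8 ± 41.9 CPM. These were the 3 genes of this list (3.85%) whose groups did not overlap, all with KPY-Setd2KO above, beside 0.327% of all genes. The largest changes were those of Gemin4, a protein of the SMN complex that loads Sm rings onto snRNAs, and Snrpn, which encodes the SmN protein. Gemin4 went from 16.5 ± 11.1 to 5.08 ± 5.52 CPM, and Snrpn from 0.426 ± 0.655 to 0.816 ± 0.633 CPM. The groups overlapped for Gemin4, at 2.86 to 29.6 CPM in KPY-Ctrl and 0.415 to 18.0 CPM in KPY-Setd2KO tumors. Snrpn was near the floor, at 0.0911 CPM in its lowest tumor, and its log2 fold change was 0.93 (SE 0.75; adjusted p = 0.646 from edgeR).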

How the data were processed

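RNA-seq of 6 KPY-Ctrl and 8 KPY-Setd2KO tumors was analysed. An allele that all the mice share is not reported here. The table deposited by the authors holds estimated counts for Ensembl genes, not normalized and written as whole numbers. They were made with Salmon 0.8.2 against GRCm38.p5 from single-end reads. The strand setting and the annotation release are not given in the sources used here. The largest values are written with 3 digits. Gene symbols, lengths and overlaps came from GENCODE M21 (GRCm38), which named 52403 of 52550 genes.

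Counts were filtered by expression, normalized by TMM and compared with edgeR 4.0.16 in R 4.3.3 (quasi-likelihood test, robust estimation, genotype alone, Benjamini-Hochberg adjustment over the 16836 genes tested). Log2 CPM used a prior count of 2. TPM used the length of the principal transcript. DESeq2 1.42.0 and limma 3.58.1 served as alternatives, beside other scalings and filters, sample quality weights, a replicate block, the leukocyte score as covariate and the omission of each tumor in turn, and near-identical copies were found with blastn 2.17.0. P-values measure the spread between tumors, some of which share a mouse. At 20072236 to 51828846 counts per tumor, this spread rather than counting error limits precision.

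The list of members was set by role, and it, the other lists and the tests were chosen with earlier results of these data known. Values per tumor are given for Setd2, for the member of each role with the smallest p and with the largest change, for the 3 highest and 3 lowest slopes on the leukocyte score, and for some other members by mean or range. Of the other spliceosome genes, the 3 with the smallest p and the 2 with the largest change are named. The edgeR, DESeq2 and limma procedures were checked on simulated counts.

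Replicate numbers occur in both genotypes. The deviations of same-numbered tumors correlated at 0.522, 0.602, -0.483, -0.664, 0.657 and -0.355, so the numbers were not treated as pairs.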

Additional observations from a re-analysis of the deposited data

Results flagged for a closer look

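Single tumors stood apart from the others of their genotype in log2 CPM for 4 of 120 combinations of gene and genotype examined (the 59 core spliceosome genes and Setd2), by Dixon's test at the 95% level, which chance passes in about 1 of 20. Snrpd2 was at 6.38 log2 CPM in KPY-Ctrl replicate 6, with the other controls between 5.45 and 5.73. Snrpg was at 6.08 in the same tumor, with the others between 5.28 and 5.54. Snrpf was at 4.17 in KPY-Ctrl replicate 1, with the others between 3.30 and 3.59. All of these encode proteins of the Sm ring. Prpf38b was at 8.40 in KPY-Setd2KO replicate 4, with the others between 6.73 and 7.35.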

How the results depend on the processing

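The number of core spliceosome genes at an adjusted p under 0.05 was 0 with edgeR on genotype alone, 7 with DESeq2, 9 with the leukocyte score as covariate, 14 with DESeq2 and the score, and 40 with limma voom weighted by library quality. The last 4 fits called 4.57%, 5.23%, 13.1% and 49.5% of all genes. At an unadjusted p under 0.05, 7 were higher with library size only (4.92% of all genes), and 33 higher and 9 lower with quality weights (28.9% and 28.5% of all genes). Their median was 0.0374 with library size only. In the replicate block fit 13 were higher and 4 lower (median 0.20), beside 5.22% and 6.12% of all genes, and no call at an adjusted p under 0.05 was gained. With single tumors left out, 9 to 14 were higher, 3 to 4 lower and 0 passed the adjusted threshold, with medians from 0.12 to 0.21. Of the 16537 to 17319 genes tested in these fits, 882 to 1348 were higher and 727 to 1457 lower at an unadjusted p under 0.05. Slopes on the score were called rising for 17 to 24 members and falling for 6 to 7 (median 0.04 to 0.05), beside 4382 to 4861 and 4344 to 5003 of all genes. With library size only 9 rose, 16 fell (18.6% and 40% of all genes) and the median slope turned to -0.0214. For the other spliceosome genes the calls at an adjusted p under 0.05 numbered 9, 14, 19 and 38 (11.5%, 17.9%, 24.4% and 48.7%) in the same 4 fits, 39 were higher and 7 lower with quality weights (median 0.27), and 4 were lower with library size only, 5 with DESeq2 and the covariate and 1 with at least 10 counts in every tumor. Their median turned to -0.0145 with library size only. They numbered 14 to 18 higher and 1 to 3 lower with single tumors left out (median 0.11 to 0.15), with 1 lower without KPY-Ctrl replicate 4 or 5. Setd2 passed with DESeq2 (-0.74, adjusted p = 0.0492), quality weights (-0.75, adjusted p = 0.00501), the covariate (-0.83, adjusted p = 0.0279) and both (-0.83, adjusted p = 0.00242) and lay between -0.85 and -0.66 with single tumors left out. Lsm2 turned to 0.0315 with quality weights. The cause of these changes was not tested. For the 18 genes named for their genotype change, 135 values in the other fits kept their direction and side of the adjusted threshold, 42 passed it and the 1 of Lsm2 reversed, and all 252 values with single tumors left out kept both, as did the 18 and 84 such values for the 6 genes named for their slope.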
